A study of Mus musculus with 47 samples.

Results

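Gene expression in the cortex of control mice was compared between the late dark phase and the late light phase. The comparison used the control chow libraries at Zeitgeber time (ZT) 22 and at ZT10, chosen by their labels, which made 8 of the 47 libraries of the study, with 4 mice at each time and 12 h between the times. ZT counts hours from lights on at ZT0, and the lights went off at ZT12. Cortical RNA had been sequenced at 6 times of day in mice on control chow or on chow with PLX5622, an inhibitor of the CSF1 receptor that depletes microglia. All 8 mice were C57BL/6J males about 3 months of age, and had eaten control chow without PLX5622 for 10 days. They lived 4 to a cage under equal light and dark phases of 12 h, were killed with carbon dioxide and perfused with saline, and the cortex was dissected from 1 frozen hemisphere. Each mouse gave 1 library, which holds RNA of all cortical cell types together. Whether the mice of a time shared a cage, and which libraries ran on the NovaSeq or the HiSeq, is not given in the sources used here, so that either could coincide with time.

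The circadian clock of most cells is a loop of transcription factors. CLOCK and ARNTL (BMAL1) bind E-box sequences as a pair and activate the genes of their own repressors, the PER and CRY proteins. They also activate the nuclear receptors NR1D1 and NR1D2, which repress Arntl, and output genes such as Dbp, a PAR bZIP transcription factor that passes the rhythm on to other genes. Cortical rhythms are set by the clock of the suprachiasmatic nucleus and also follow sleep, feeding and body temperature. Mice are active and eat mainly in the dark.

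The total counts of the ZT22 mice 1 to 4 were 18008371, 23827625, 19191568 and 18280080. Those of the ZT10 mice 1 to 4 were 16795624, 19647462, 23768758 and 18040001, and the totals of the groups overlapped (exact permutation test, two-sided, p = 0.886, n = 4 and 4). Between libraries of a group, chi-square divided by its degrees of freedom was at least 8.15 in each of the 12 pairs. This sets separate mice against counting noise alone, and no conclusion is drawn from it. The mitochondrial share of the counts was 8.96%, 7.31%, 6.57% and 8.83% at ZT22 and 8.57%, 7.65%, 9.03% and 8.25% at ZT10. The means of 7.92% ± 1.17 and 8.38% ± 0.579 (SD, n = 4) gave a two-sided p of 0.514 in an exact permutation test, in which the smallest possible p is 0.0286.

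The tissue label was checked against markers. Slc17a7, the vesicular glutamate transporter of cortical excitatory neurons, lay between 445 and 543 TPM (transcript counts corrected for gene length and library size) in the 8 libraries, and Tbr1, a transcription factor of deep-layer cortical neurons, between 26.1 and 35.8 TPM. Markers of neighbouring regions differed between libraries. The library of ZT10 mouse 2 stood apart, since the summed level of 8 cerebellar markers was 252 TPM there, against 25.9, 23.9 and 30.1 TPM in the other ZT10 mice and 34.6, 54.3, 34.2 and 26.1 TPM in the ZT22 mice. Pcp2, a Purkinje cell gene, was at 117 TPM in ZT10 mouse 2 and at most 11.5 TPM elsewhere, and Gabra6, a GABA receptor subunit of cerebellar granule cells, at 12.8 TPM and at most 1.17 TPM elsewhere. The summed level of 10 striatal markers was 736, 1167, 626 and 1159 TPM in the ZT22 mice and 958, 295, 744 and 1160.5 TPM in the ZT10 mice, lowest in the same library. That of 8 thalamic markers was 49.9, 156, 114 and 53.7 TPM in the ZT22 mice and 47.7, 107, 52.9 and 65.6 TPM in the ZT10 mice, with the higher levels in ZT22 mice 2 and 3 and ZT10 mouse 2. The summed level of 8 hypothalamic markers was 92.8, 109, 37.4 and 189.7 TPM in the ZT22 mice. In the ZT10 mice it was 264, 236, 198 and 55.95 TPM, against a median of 51.9 TPM over the 23 control libraries. It was thus highest in ZT10 mice 1, 2 and 3, so that neighbouring tissue is not a matter of ZT10 mouse 2 alone. The part of neighbouring tissue in the results below was not tested, and counts are given with and without ZT10 mouse 2.

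At ZT22, 50 of 14777 genes tested differed from ZT10 (edgeR quasi-likelihood test on counts, Benjamini-Hochberg adjusted p under 0.05), which is 0.338%. Of these, 27 (0.183%) were higher and 23 (0.156%) were lower at ZT22. Core clock genes and the output gene Dbp, the cold-inducible RNA-binding protein genes Cirbp and Rbm3 and the tight-junction gene Cldn5 were among them. The differences were moderate, with a median log2 fold change of 0.47 among the higher genes and -0.64 among the lower genes, and the smallest size called was 0.31. A log2 fold change of at least 1 in size was seen in 5 of the lower genes, Ccl28, Ciart, Inmt, Dbp and Pla2g4e, and in 0 of the higher genes. Over all genes tested, 1511 genes (10.2%) had an unadjusted p under 0.05. The 4 mice at ZT22 and the 4 at ZT10 did not overlap in scaled counts (CPM) in any of the 50 genes, against 782 of all genes tested (5.29%), of which 404 (2.73%) were higher and 378 (2.56%) lower at ZT22. In TPM, 34 of the 50 did not overlap, against 522 of 14732 genes tested (3.54%). Of all genes tested, 7177 (48.6%) had a positive fold change.

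The number of calls depended on single libraries. It was 59 (31 higher, 28 lower) without ZT10 mouse 2, and 36 of the 50 calls were kept. It was 45, 22, 21 and 21 without ZT22 mouse 1, 2, 3 and 4 in turn, and 83, 16 and 21 without ZT10 mouse 1, 3 and 4. In every one of these 8 fits all 50 genes kept the sign of their fold change, and 16 genes passed the test each time, namely Dbp, Cirbp, Ciart, Bhlhe41, Nr1d1, Rbm3, Arntl, Nr1d2, Lman2l, Tspan4, Cldn5, Hist1h2be, Usp2, Pdzd2, Haghl and Tfrc. Of these 16 genes, 5 were higher and 11 were lower at ZT22. With the 8 libraries alone, without the spread estimated from the control libraries at the other times, 7 genes were called.

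**Figure D1:**
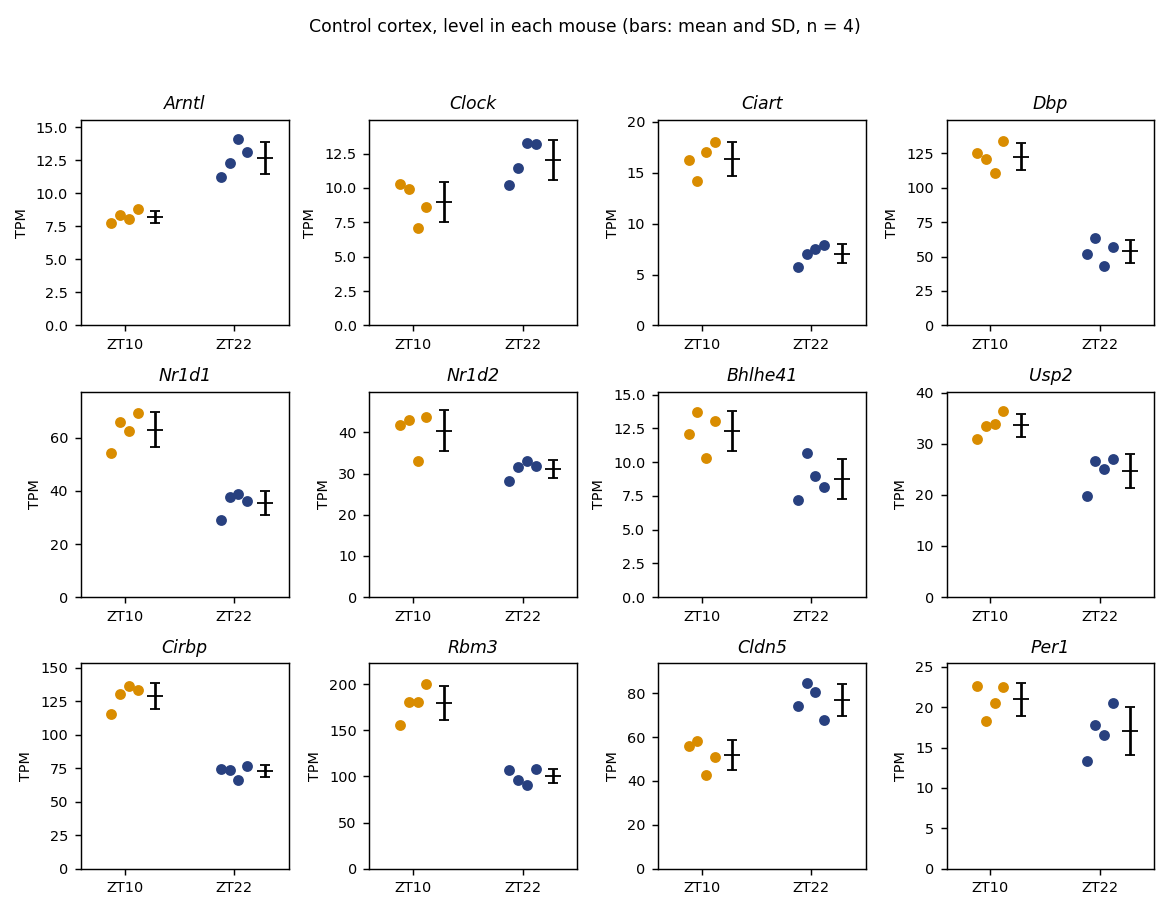
Level in TPM (vertical axis, from 0) of 12 genes in each control mouse at ZT10 (orange) and ZT22 (blue), with 1 point per mouse and bars for the mean and SD (n = 4). In Arntl and Cldn5 all ZT22 mice lie above all ZT10 mice, in Ciart, Dbp, Nr1d1, Cirbp and Rbm3 they lie below, and in Per1 the groups overlap.

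Among the activators of the clock loop, 2 of 6 genes tested were higher at ZT22 and 0 were lower, with a median log2 fold change of 0.28. DESeq2 called 2 genes of this list higher and limma called 1. Arntl (chr7:113207465-113314126 in GRCm38, as are the coordinates below, plus strand, GENCODE M21) encodes the partner of CLOCK. It was at 11.2, 12.3, 14.1 and 13.1 TPM in the ZT22 mice and 7.74, 8.39, 8.03 and 8.79 TPM in the ZT10 mice. Every ZT22 mouse was above every ZT10 mouse (log2 fold change 0.61 ± 0.09 (SE), adjusted p = 5.25e-04), and leaving out any single library kept the call. Clock (chr5:76209868-76304792, minus strand) was at 10.2, 11.4, 13.3 and 13.2 TPM in the ZT22 mice and 10.3, 9.90, 7.09 and 8.63 TPM in the ZT10 mice. In TPM the lowest ZT22 mouse, mouse 1, was just under the highest ZT10 mouse, mouse 1, and ZT10 mouse 3 was the lowest of all (log2 fold change 0.31 ± 0.07 (SE), adjusted p = 0.0371). The call of Clock was lost without ZT22 mouse 2, 3 or 4 or ZT10 mouse 3 or 4 (adjusted p between 0.0701 and 0.217). Npas2, a paralog of Clock used in the forebrain, was at 14.5, 21.5, 11.5 and 21.4 TPM in the ZT22 mice and 21.3, 15.99, 12.7 and 14.7 TPM in the ZT10 mice, and these groups overlapped (log2 fold change 0.34 ± 0.11 (SE), adjusted p = 0.216, and 0.07 in limma on log2(TPM + 1)). The receptor genes Rora and Rorb, whose products activate Arntl, had log2 fold changes of 0.26 and -0.12 and adjusted p of 0.510 and 0.686. Arntl2, a paralog of Arntl, was at most 3.05 TPM in these mice and was not called either (adjusted p = 0.820).

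Of the 10 repressors of the loop, 4 were lower at ZT22 (Ciart, Nr1d1, Bhlhe41 and Nr1d2), 0 were higher, and the median log2 fold change was -0.22. Ciart (chr3:95878503-95882251, minus strand) encodes CHRONO, which represses the CLOCK and ARNTL pair. It was at 5.72, 7.06, 7.48 and 7.86 TPM in the ZT22 mice and 16.3, 14.2, 17.02 and 18.1 TPM in the ZT10 mice. The highest ZT22 mouse was well under the lowest ZT10 mouse (log2 fold change -1.44 ± 0.15 (SE), adjusted p = 7.03e-06). Nr1d1 (chr11:98767932-98775333, minus strand) encodes REV-ERB alpha, a repressor of Arntl. It was at 28.9, 37.9, 38.9 and 36.2 TPM in the ZT22 mice and 54.3, 66.1, 62.7 and 69.5 TPM in the ZT10 mice, again without overlap (log2 fold change -0.84 ± 0.10 (SE), adjusted p = 6.56e-05). Nr1d2 (chr14:18204054-18239127, minus strand), which encodes REV-ERB beta, was at 28.1, 31.6, 33.1 and 31.9 TPM in the ZT22 mice and 41.7, 42.9, 33.003 and 43.8 TPM in the ZT10 mice. ZT22 mouse 3 was level with ZT10 mouse 3 in TPM, while the other ZT22 mice were below all ZT10 mice (log2 fold change -0.43 ± 0.07 (SE), adjusted p = 0.00281). Bhlhe41 (chr6:145858243-145865558, minus strand), which encodes the E-box repressor DEC2, was at 7.21, 10.7, 8.98 and 8.18 TPM in the ZT22 mice and 12.1, 13.7, 10.3 and 13.01 TPM in the ZT10 mice. In TPM ZT22 mouse 2 was just above ZT10 mouse 3, and in CPM the groups did not overlap (log2 fold change -0.64 ± 0.07 (SE), adjusted p = 1.89e-05). These 4 genes were called in each fit without 1 library, while limma on log2(TPM + 1) did not call Nr1d2 (adjusted p = 0.265) or Bhlhe41 (adjusted p = 0.138).

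The period and cryptochrome genes did not pass the test between these times. Per1 was at 13.3, 17.8, 16.6 and 20.5 TPM in the ZT22 mice and 22.7, 18.3, 20.5 and 22.5 TPM in the ZT10 mice, and ZT22 mouse 4 lay among the ZT10 mice (log2 fold change -0.24 ± 0.12 (SE), adjusted p = 0.536). Per2 was at 4.54, 5.41, 6.72 and 5.90 TPM in the ZT22 mice and 5.34, 5.38, 4.65 and 5.18 TPM in the ZT10 mice, with overlap (log2 fold change 0.09 ± 0.11 (SE), adjusted p = 0.840). Per3, Cry1, Cry2 and Bhlhe40, which encodes DEC1, had log2 fold changes of -0.13, 0.20, -0.10 and -0.20, with adjusted p of 0.780, 0.383, 0.680 and 0.642. Over the 6 control times, Per1 had its highest mean at ZT14 (37.9 ± 3.67 TPM, n = 3), and ZT10 and ZT22 were at 20.997 ± 2.05 TPM and 17.1 ± 2.98 TPM (SD, n = 4). Per2 likewise had its highest mean at ZT14 (11.5 ± 0.289 TPM), with 5.14 ± 0.334 TPM at ZT10 and 5.64 ± 0.913 TPM at ZT22. For Cry1 the means were 9.21 ± 0.973 TPM at ZT10, 14.04 ± 0.438 TPM at ZT14 and 10.96 ± 1.43 TPM at ZT22.

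In the list of 4 genes that holds the PAR bZIP output genes and their antagonist, 1 was lower and 0 were higher at ZT22. Dbp (chr7:45705088-45710203, plus strand), the D-box activator, had the smallest p of all genes. It was at 51.8, 63.2, 42.8 and 57.2 TPM in the ZT22 mice and 125, 121, 111 and 134 TPM in the ZT10 mice. The groups did not overlap (log2 fold change -1.20 ± 0.10 (SE), adjusted p = 5.38e-07), and the adjusted p was at most 5.54e-06 when any library was left out. Tef and Hlf, paralogs of Dbp, did not pass, with log2 fold changes of 0.07 ± 0.08 and 0.08 ± 0.10 (SE). Tef was the most abundant of the list at 156, 155, 161 and 161 TPM in the ZT22 mice and 158, 148, 126 and 144 TPM in the ZT10 mice. Nfil3, a repressor that competes for the D-box, was at 4.16, 5.73, 5.59 and 4.88 TPM in the ZT22 mice and 3.55, 3.99, 3.50 and 4.28 TPM in the ZT10 mice. The groups nearly separated, with ZT22 mouse 1 under ZT10 mouse 4, but the difference did not pass (log2 fold change 0.42 ± 0.12 (SE), adjusted p = 0.167).

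For 10 genes for proteins that modify or bind clock proteins, such as casein kinases, F-box proteins and Timeless, the median was 0.03. It ranged from 0.01 to 0.07 without 1 library at a time. Of these genes, 1 was lower and 0 were higher. That gene, Usp2 (chr9:44067021-44095627, plus strand), encodes a deubiquitinase. It was at 19.8, 26.6, 25.01 and 27.02 TPM in the ZT22 mice and 30.9, 33.4, 33.9 and 36.4 TPM in the ZT10 mice. All ZT22 mice were below all ZT10 mice (log2 fold change -0.54 ± 0.09 (SE), adjusted p = 0.00477). The call was kept without any single library, and limma on log2(TPM + 1) did not make it (adjusted p = 0.142).

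**Figure D2:**
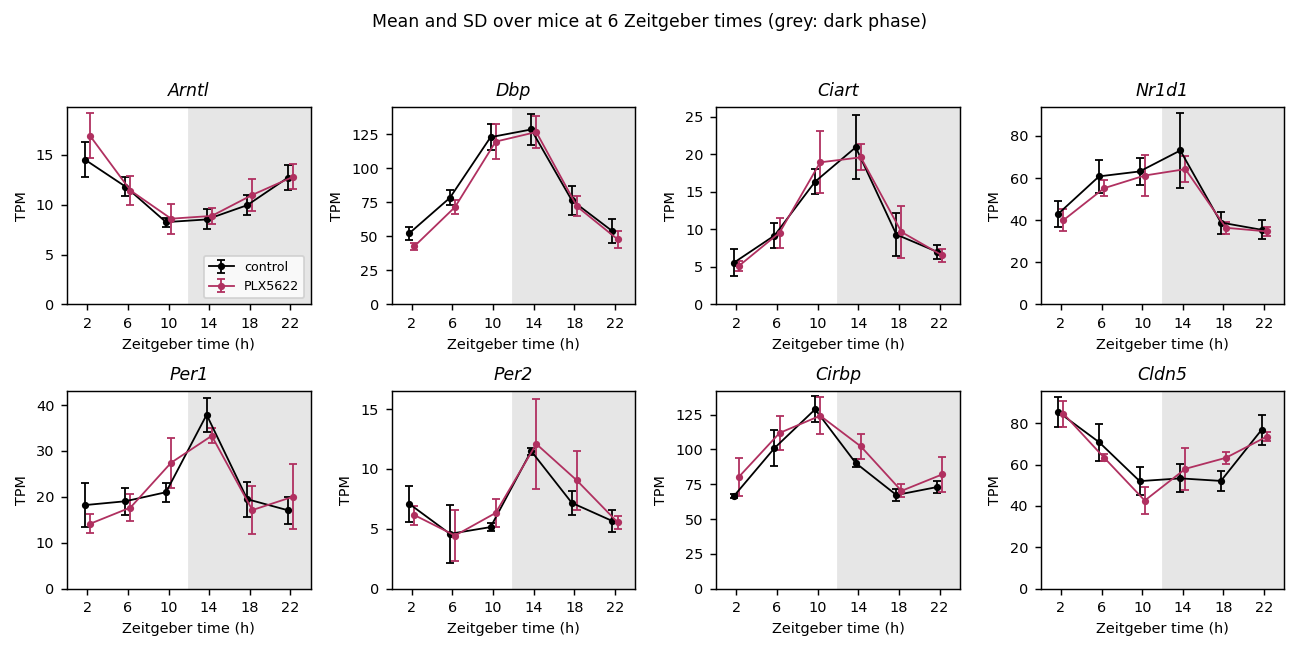
Mean level in TPM with SD (vertical axis, from 0) at 6 Zeitgeber times (horizontal axis, h) in control (black) and PLX5622 mice (red), with n = 4 mice per point and n = 3 for control mice at ZT14, and the dark phase in grey. Arntl and Cldn5 are higher at ZT22 than at ZT10 in both diets, while Per1 and Per2 have their highest means at ZT14, between the times compared.

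Called genes were then placed among the 6 control times. The choice of these genes used ZT10 and ZT22, so that the place of those means is partly given by it. All 27 higher genes had their lowest control mean at ZT10, and the highest was at ZT22 in 16, at ZT2 in 6 and at ZT14 in 5. The 23 lower genes had their highest mean at ZT10 in 12, at ZT14 in 10 and at ZT6 in 1, and their lowest at ZT2 in 12, at ZT18 in 6 and at ZT22 in 5. Arntl went on from 12.7 ± 1.22 TPM at ZT22 to 14.5 ± 1.79 TPM at ZT2, from a low of 8.24 ± 0.457 TPM at ZT10 (SD, n = 4). Dbp was at 128 ± 11.5 TPM at ZT14 (n = 3), close to the 123 ± 9.51 TPM at ZT10, and at 52.2 ± 4.72 TPM at ZT2, close to the 53.7 ± 8.65 TPM at ZT22. In comparison, the control contrasts of ZT14 with ZT2 and of ZT18 with ZT6, also 12 h apart, called 95 genes (0.643%; 77 higher, 0.521%, and 18 lower, 0.122%) and 60 genes (0.406%; 37 higher, 0.250%, and 23 lower, 0.156%). The difference in these counts was not tested.

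Promoter windows of 300 bases (250 before and 50 after the start, RefSeq, GRCm38.p6) were searched on both strands for short motifs of clock and stress factors. A window was found by symbol for 41 of the 50 called genes. The E-box CACGTG was in the windows of 4 of 20 lower genes, which were Ciart, Bhlhe41, Amn and Tspan4, of 1 of 21 higher genes, and of 1278 of 11155 genes tested (11.5%). The D-box TTANGTAA was in 0 of 20, 1 of 21 and 201 of 11155 (1.80%). The ROR element, TAGGTCA or TGGGTCA, which NR1D1, NR1D2 and the product of Rora bind, was in 2 of 20, 2 of 21 and 666 of 11155 (5.97%), and Arntl was among the higher genes. The heat shock element, 3 units of GAA and TTC in turn with 2 bases between them, and the cAMP response element TGACGTCA were in 0 of 20 and 0 of 21, against 63 (0.565%) and 394 (3.53%) of the 11155 genes. Of the other clock genes called lower, Dbp, Nr1d1, Nr1d2 and Usp2 had 0 E-boxes in their windows, and Tef, which was not called, had 1 in each of its 2 windows. A match is a description of the letters only. The 250 bases before the start of Ciart, which hold 3 E-boxes, and 30-base pieces chosen because they hold the motif, at the E-boxes of Bhlhe41, which was called lower, and of Per1 and Cry1, which did not pass, are printed 5′ to 3′ on the strand of the gene with the E-box in capitals, as is a piece after the start of Arntl with the ROR element in capitals. They lie at chr3:95882229-95882478 (minus strand) for Ciart, chr6:145865556-145865585 (minus strand) for Bhlhe41, chr11:69098771-69098800 (plus strand) for Per1, chr10:85185097-85185126 (minus strand) for Cry1 and chr7:113207530-113207559 (plus strand) for Arntl.
Ciart: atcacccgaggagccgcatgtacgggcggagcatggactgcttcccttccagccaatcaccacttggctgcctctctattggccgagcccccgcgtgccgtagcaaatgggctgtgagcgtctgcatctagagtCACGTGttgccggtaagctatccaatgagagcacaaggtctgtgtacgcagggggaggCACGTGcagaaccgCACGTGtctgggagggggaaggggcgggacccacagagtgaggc
Bhlhe41: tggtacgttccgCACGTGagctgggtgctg
Per1: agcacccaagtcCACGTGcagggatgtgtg
Cry1: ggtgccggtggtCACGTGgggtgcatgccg
Arntl: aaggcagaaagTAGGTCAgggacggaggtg

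Of 4 genes that respond to lowered temperature, 2 were lower at ZT22 and 0 were higher, with a median log2 fold change of -0.52. Cirbp (chr10:80165985-80172786, plus strand) and Rbm3 (chrX:8138975-8145880, minus strand) encode RNA-binding proteins that cells make more of in mild cold. Cirbp was at 74.7, 73.9, 66.4 and 76.9 TPM in the ZT22 mice and 115, 130.5, 136 and 134 TPM in the ZT10 mice. The ZT22 mice lay in a narrow band far under the ZT10 mice (log2 fold change -0.96 ± 0.10 (SE), adjusted p = 7.03e-06). Rbm3 was at 107, 96.4, 91.2 and 108 TPM in the ZT22 mice and 156, 181, 180.3 and 201 TPM in the ZT10 mice, also without overlap (log2 fold change -0.78 ± 0.11 (SE), adjusted p = 3.64e-04). Rtn3 and Srsf5, induced by cooling in other settings, had log2 fold changes of -0.11 and -0.26 and did not pass. Over the control times Cirbp was highest at ZT10 and at 67.3 ± 4.28 TPM at ZT18 and 66.5 ± 1.31 TPM at ZT2, around the 72.97 ± 4.54 TPM at ZT22.

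None of the genes in the lists of responses to heat and to unfolded proteins was called. These hold mostly chaperones, with the transcription factor Hsf1 and the mitochondrial chaperonins Hspd1 and Hspe1 in the heat shock list and the transcription factors Atf4, Atf6, Xbp1 and Ddit3 in the endoplasmic reticulum list. In the heat shock list 0 of 20 genes passed with edgeR, DESeq2 or limma (4 at an unadjusted p under 0.05 with edgeR), 16 had a positive fold change and the median was 0.16. Chordc1, a partner of HSP90, had the smallest p of that list. It was at 21.7, 36.8, 39.8 and 38.5 TPM in the ZT22 mice and 24.7, 21.8, 14.7 and 19.4 TPM in the ZT10 mice, with ZT22 mouse 1 far under the other ZT22 mice and within the ZT10 range (log2 fold change 0.38 ± 0.12 (SE), adjusted p = 0.210). Without ZT22 mouse 1 its log2 fold change was 0.51 with an adjusted p of 0.0439. In the endoplasmic reticulum list 0 of 18 passed with any of the 3 tools (5 at an unadjusted p under 0.05), 15 were positive and the median was 0.12. Without 1 library at a time that median ranged from 0.01 (without ZT22 mouse 3) to 0.16 (without ZT22 mouse 1). Manf, a secreted stress-induced factor, was at 77.3, 94.5, 132 and 89.6 TPM in the ZT22 mice and 69.1, 86.4, 72.5 and 75.7 TPM in the ZT10 mice, with overlap (log2 fold change 0.30 ± 0.09 (SE), adjusted p = 0.224). Outside these lists, the J-domain protein genes Dnajc28 and Dnaja4 were called higher, and are given with the other called genes.

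Immediate early genes, which neuronal activity induces, gave 0 calls among 24 with edgeR (5 at an unadjusted p under 0.05), 2 higher with DESeq2 and 0 with limma, with a median of 0.18 (0.04 to 0.52 without 1 library at a time, highest without ZT10 mouse 4) and 14 positive fold changes. Their summed level was 378, 451, 452 and 731 TPM in the ZT22 mice and 289, 310.2, 266 and 678 TPM in the ZT10 mice, and ZT22 mouse 4 and ZT10 mouse 4 stood above the others of their group. Egr3, an activity-induced transcription factor, came nearest. It was at 57.05, 61.04, 52.9 and 65.9 TPM in the ZT22 mice and 47.99, 36.4, 33.4 and 41.9 TPM in the ZT10 mice, and all ZT22 mice were above all ZT10 mice, but the adjusted p missed the threshold (log2 fold change 0.55 ± 0.13 (SE), adjusted p = 0.0752). Its adjusted p was 0.00978 with DESeq2.

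Among 20 genes of the glucocorticoid response, mostly induced genes with 2 receptors and the activating enzyme Hsd11b1, 1 was higher at ZT22 with edgeR, 2 with DESeq2 and 0 with limma, and 0 were lower (4 at an unadjusted p under 0.05 with edgeR), with a median of 0.05. That median ranged from 0.04 to 0.10 without 1 library at a time. Sult1a1, a phenol sulphotransferase, was at 11.6, 15.96, 18.3 and 18.3 TPM in the ZT22 mice and 10.4, 10.4, 9.77 and 9.10 TPM in the ZT10 mice, without overlap (log2 fold change 0.62 ± 0.13 (SE), adjusted p = 0.0319). Its call was lost without ZT22 mouse 2, 3 or 4 or ZT10 mouse 2, 3 or 4 (adjusted p between 0.0514 and 0.142). For cholesterol synthesis and uptake, 0 of 25 genes tested passed with edgeR, DESeq2 or limma (5 at an unadjusted p under 0.05 with edgeR), and the median was -0.05. This median ranged from -0.07 to -0.01 without 1 library at a time. Acat2, an acetyl-CoA acetyltransferase, was at 23.7, 28.5, 28.7 and 28.96 TPM in the ZT22 mice and 29.8, 35.02, 30.4 and 33.1 TPM in the ZT10 mice, with all ZT22 mice below all ZT10 mice, and did not pass (log2 fold change -0.27 ± 0.08 (SE), adjusted p = 0.157). Without ZT10 mouse 1 its log2 fold change was -0.33 with an adjusted p of 0.0429.

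In the list of 20 genes of blood-brain barrier endothelium, 1 was higher at ZT22 and 0 were lower (6 at an unadjusted p under 0.05), with 12 positive and 8 negative fold changes and a median of 0.04. The sign of this median depended on single libraries, from -0.03 without ZT10 mouse 3 to 0.14 without ZT10 mouse 2. Cldn5 (chr16:18776847-18778262, plus strand) encodes claudin-5, the main claudin of endothelial tight junctions. It was at 74.2, 84.5, 80.6 and 67.9 TPM in the ZT22 mice and 55.8, 58.4, 42.7 and 51.02 TPM in the ZT10 mice. All ZT22 mice were above all ZT10 mice (log2 fold change 0.54 ± 0.09 (SE), adjusted p = 0.00461), and the call was kept without any single library. DESeq2 called it as well, and limma on log2(TPM + 1) did not (adjusted p = 0.0750). The summed level of the whole list was 529, 632, 597 and 513 TPM in the ZT22 mice and 512, 629, 478 and 529 TPM in the ZT10 mice, and these sums overlapped. Ly6c1 was the most abundant of the list. Its log2 fold change was 0.20 (adjusted p = 0.409). The other genes of the list at an unadjusted p under 0.05, picked after their values were seen, were the transporters Slco1a4 and Mfsd2a at -0.32 and 0.29, the membrane protein gene Itm2a at -0.24 and the junction gene Tjp1 at 0.24 (adjusted p = 0.142, 0.235, 0.323 and 0.425). In such bulk values, fewer cells of a type and less RNA per cell cannot be told apart.

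The remaining lower genes had varied roles. Inmt, an N-methyltransferase of tryptamine, was at 1.19, 2.14, 2.19 and 0.788 TPM in the ZT22 mice and 3.49, 3.04, 3.53 and 6.48 TPM in the ZT10 mice. ZT10 mouse 4 stood above the other ZT10 mice, which were still above all ZT22 mice (log2 fold change -1.41 ± 0.29 (SE), adjusted p = 0.0278), and the call was lost without ZT22 mouse 1, 3 or 4 or ZT10 mouse 3 or 4 (adjusted p between 0.0536 and 0.150). Pla2g4e, an enzyme that transfers acyl chains to phosphatidylethanolamine, was at 1.83, 0.850, 1.01 and 2.39 TPM in the ZT22 mice and 3.29, 2.23, 3.23 and 2.83 TPM in the ZT10 mice. ZT22 mouse 4 was above ZT10 mouse 2 in TPM (log2 fold change -1.08 ± 0.20 (SE), adjusted p = 0.0107), and the call was lost without ZT22 mouse 2 or 3 or ZT10 mouse 3 (adjusted p between 0.0536 and 0.0847). Amn, a partner of cubilin in the uptake of cobalamin, had a log2 fold change of -0.85 ± 0.16 (SE), adjusted p = 0.0114, and lost its call without ZT22 mouse 4 or ZT10 mouse 3 (adjusted p between 0.0595 and 0.0673). Klhl40, a kelch protein known from muscle, had one of -0.87 ± 0.19 (SE), adjusted p = 0.0371, and lost its call without ZT22 mouse 1, 2, 3 or 4 or ZT10 mouse 3 or 4 (adjusted p between 0.0530 and 0.195). The tetraspanin gene Tspan4 was at 10.97, 13.6, 14.3 and 13.95 TPM in the ZT22 mice and 19.7, 29.005, 21.4 and 22.3 TPM in the ZT10 mice, without overlap (log2 fold change -0.75 ± 0.12 (SE), adjusted p = 0.00309). Tfrc, the transferrin receptor, had a log2 fold change of -0.40 ± 0.07 (SE), adjusted p = 0.00634, and kept its call without any single library, and was chosen for this after its values were seen. Ccl28, a chemokine with a mean under 1 TPM in these libraries, was outside the rule for named genes and was picked after its values were seen as the largest of the lower changes (-1.56 ± 0.30 (SE), adjusted p = 0.0204), and its call was lost without ZT22 mouse 3 or 4 or ZT10 mouse 3 or 4 (adjusted p between 0.0541 and 0.105).

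Of the higher genes outside the clock, Hist1h2be, a histone H2B gene, had the largest fold change. It was at 3.75, 4.44, 6.58 and 4.29 TPM in the ZT22 mice and 2.45, 2.14, 1.92 and 2.32 TPM in the ZT10 mice, without overlap (log2 fold change 0.99 ± 0.16 (SE), adjusted p = 0.00461). Histone H2B genes share much of their sequence, so reads could be split among copies and the value is uncertain. The annotated span of Hist1h2be also overlaps that of the histone gene Hist1h1e on the same strand. Cth, which makes cysteine from cystathionine, was at 5.52, 5.89, 7.85 and 5.92 TPM in the ZT22 mice and 2.93, 4.18, 2.82 and 3.46 TPM in the ZT10 mice, without overlap (log2 fold change 0.88 ± 0.16 (SE), adjusted p = 0.0113), and lost its call without ZT22 mouse 3 or ZT10 mouse 3 (adjusted p between 0.0541 and 0.0898). Tmem151b, a transmembrane protein gene, was at 66.2, 77.3, 70.5 and 76.2 TPM in the ZT22 mice and 47.5, 52.9, 38.1 and 44.6 TPM in the ZT10 mice, again without overlap (log2 fold change 0.69 ± 0.13 (SE), adjusted p = 0.0168), and lost its call without ZT22 mouse 2 or 4 or ZT10 mouse 3 or 4 (adjusted p between 0.0590 and 0.110). Pdzd2, a protein with PDZ domains, was at 14.9, 16.9, 17.2 and 18.7 TPM in the ZT22 mice and 12.7, 10.6, 7.61 and 9.68 TPM in the ZT10 mice (log2 fold change 0.56 ± 0.10 (SE), adjusted p = 0.00537), and kept its call without any single library, as did Lman2l, a lectin of the secretory pathway chosen after its values were seen (0.47 ± 0.07 (SE), adjusted p = 0.00281).

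The calls of the other named higher genes needed most or all of the 8 libraries. Adat2, a subunit of the tRNA adenosine deaminase, had a log2 fold change of 0.67 ± 0.14 (SE), adjusted p = 0.0277, and lost its call without ZT22 mouse 1, 2 or 4 or ZT10 mouse 2, 3 or 4 (adjusted p between 0.0566 and 0.151). For Dubr, the long intergenic RNA among the 50, where the others were protein coding, it was 0.71 ± 0.15 (SE), adjusted p = 0.0362, lost without ZT22 mouse 2, 3 or 4 or ZT10 mouse 2, 3 or 4 (adjusted p between 0.0617 and 0.191). Dnajc28 stood at 0.48 ± 0.11 (SE), adjusted p = 0.0419, and ZT22 mouse 3 was highest with 8.30 TPM, with the call lost without ZT22 mouse 2, 3 or 4 or ZT10 mouse 1, 3 or 4 (adjusted p between 0.0595 and 0.204). Dnaja4, picked here beside Dnajc28 after its value was seen, stood at 0.39 ± 0.08 (SE), adjusted p = 0.0241, lost without ZT22 mouse 2, 3 or 4 or ZT10 mouse 2, 3 or 4 (adjusted p between 0.0664 and 0.121). Spry4, an inhibitor of receptor tyrosine kinase signalling (0.49 ± 0.11 (SE), adjusted p = 0.0419), and Crybb1, a crystallin gene (0.62 ± 0.14 (SE), adjusted p = 0.0432), lost their calls without any one of the 8 libraries, with adjusted p of 0.0662 to 0.187 for Spry4 and 0.0529 to 0.163 for Crybb1. In PLX5622 mice, in which the inhibitor depletes microglia, the mean of Crybb1 was 1.40 ± 0.655 TPM at ZT22 and 1.27 ± 0.537 TPM at ZT10, against 16.6 ± 1.33 TPM and 10.9 ± 0.839 TPM in control mice (SD, n = 4). These levels were not compared by a test.

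Of the 50 called genes, 17 overlapped another tested gene in their annotated span, which includes introns, 15 of them one on the other strand. The share over all genes tested was not computed, so no conclusion is drawn from this count. The sources do not state that the counting used strand. Where exons of such a pair coincide, their reads could then not be told apart, and overlap of exons was not checked. Dbp overlaps Sphk2, a sphingosine kinase gene, whose log2 fold change was 0.38 ± 0.09 (SE, adjusted p = 0.0520), opposite in sign to that of Dbp. Nr1d1 overlaps Thra, a thyroid hormone receptor gene, whose log2 fold change was 0.04 ± 0.11 (SE, adjusted p = 0.937). Tspan4 overlaps Chid1, at -0.10 ± 0.08 (SE, adjusted p = 0.751).

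**Figure D3:**
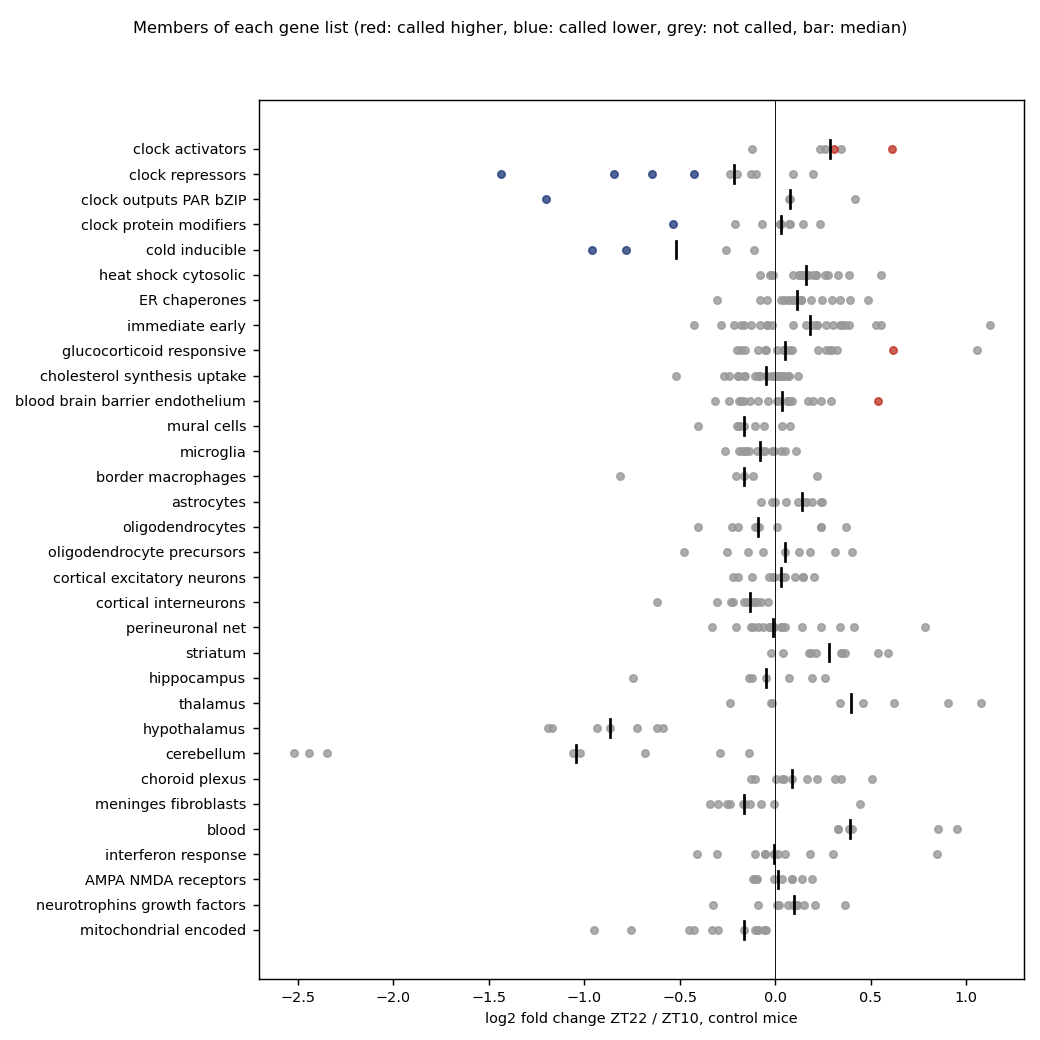
Log2 fold change at ZT22 against ZT10 in control mice (horizontal axis) of each tested member of the gene lists (vertical axis), with 1 point per gene, coloured where called higher (red) or lower (blue), and a bar at the median. Calls are in the clock lists, the cold-inducible list, the glucocorticoid list and the endothelial list, while the cerebellar list has the lowest median, -1.04, which was 0.76 without ZT10 mouse 2.

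The lists of cell type markers gave no further calls, while Crybb1, whose level was low in PLX5622 mice, is outside them. Of 14 microglial genes, 0 passed with edgeR, DESeq2 or limma (0 at an unadjusted p under 0.05). The median over these genes was -0.08, with -0.17 without ZT22 mouse 2 and -0.04 without ZT22 mouse 3. Their summed level was 711, 847, 721 and 633 TPM in the ZT22 mice and 746, 748, 652 and 708 TPM in the ZT10 mice, with overlap. Ctss, a lysosomal protease of microglia, was at 93.6, 108, 86.97 and 79.9 TPM in the ZT22 mice and 94.8, 109.8, 91.9 and 99.2 TPM in the ZT10 mice, with overlap (log2 fold change -0.14 ± 0.09 (SE), adjusted p = 0.609). P2ry12, the purinergic receptor of microglial processes, was at 45.3, 45.5, 40.3 and 43.97 TPM in the ZT22 mice and 46.6, 39.5, 35.8 and 47.6 TPM in the ZT10 mice, also with overlap (log2 fold change -0.16 ± 0.10 (SE), adjusted p = 0.609). Aif1, which encodes IBA1, and Acan, which encodes the perineuronal net protein aggrecan, had log2 fold changes of -0.10 and -0.01 (adjusted p of 0.894 and 0.995). The sign for P2ry12 was positive (0.0532) in limma on log2(TPM + 1), that for Aif1 was positive (5.98e-05) without ZT10 mouse 1, and that for Acan was positive without ZT22 mouse 1 or 2 or ZT10 mouse 2 or 4 (0.02 to 0.08). The perineuronal net list as a whole had 0 calls among 18 genes tested with each of these tools (2 at an unadjusted p under 0.05) and a median of -0.01. That median ranged from -0.04 to 0.03 without 1 library at a time. The other glial and vascular lists also had 0 calls with each of the 3 tools (with edgeR 1, 1, 4, 0 and 0 genes at an unadjusted p under 0.05 in the order given), with medians of 0.14 for 10 astrocyte genes, -0.09 for 10 oligodendrocyte genes, 0.05 for 9 oligodendrocyte precursor genes, -0.16 for 9 mural cell genes and -0.16 for 5 genes of border macrophages. Without ZT10 mouse 2 the medians were 0.04 for mural cells, 0.01 for oligodendrocytes and 0.24 for astrocytes. The oligodendrocyte precursor median ranged from -0.04 (without ZT10 mouse 4) to 0.15 (without ZT10 mouse 2). That of border macrophages ranged from -0.24 (without ZT22 mouse 3) to -0.01 (without ZT22 mouse 4). Astrocytes were at 0.06 without ZT10 mouse 4, mural cells at -0.08 without ZT22 mouse 4 and oligodendrocytes at -0.15 without ZT22 mouse 2.

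Neuronal lists had 0 calls as well with edgeR, DESeq2 and limma, and 0 genes at an unadjusted p under 0.05 with edgeR. The median was 0.03 for 13 genes of cortical excitatory neurons, 0.01 for 10 glutamate receptor genes and 0.10 for 13 genes of growth factors and their receptors. Without 1 library at a time these medians ranged from -0.06 to 0.06, from -0.06 to 0.10 and from 0.03 to 0.12. For 12 interneuron genes the median was -0.13, with -0.05 without ZT10 mouse 3 and -0.26 without ZT10 mouse 2. Every fold change of these 12 genes was negative, where 48.6% of all genes tested were positive. The genes of a list come from the same libraries, so their signs are not independent draws. Other lists were one-sided as well, such as the 8 cerebellar and 7 hypothalamic genes, all negative, and the 6 blood genes, all positive. The most abundant of the interneuron genes was Cck. Their summed level was 1479.8, 1807, 2169 and 2039.7 TPM in the ZT22 mice and 1701, 1702, 2240.3 and 2381 TPM in the ZT10 mice, with overlap. The interferon list had 0 calls with each tool (2 at an unadjusted p under 0.05). Its median was -0.01 over 12 genes, and -0.06 to 0.07 without 1 library at a time. All 13 genes encoded in the mitochondrial genome had negative fold changes, with a median of -0.17. This median was -0.06 without ZT22 mouse 3 and -0.27 without ZT22 mouse 1. The list had 0 calls with edgeR and limma (3 at an unadjusted p under 0.05), and 1 lower with DESeq2. That gene, mt-Co2, a subunit of cytochrome c oxidase, was at 6455, 5638, 4723 and 7528 TPM in the ZT22 mice and 7649, 6925, 10347 and 6889 TPM in the ZT10 mice, with overlap (log2 fold change -0.95 ± 0.24 (SE), adjusted p = 0.101). The tables differ here, as the log2 fold change was -0.39 in limma on log2(TPM + 1), and ZT10 mouse 1 was the lowest ZT10 mouse in counts (1365, against 2706, 3928 and 3609) but not in TPM. Without ZT10 mouse 1 it passed, with a log2 fold change of -1.15 and an adjusted p of 0.0186.

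Markers of tissue next to the cortex gave 0 calls with each tool but wide ranges, and with edgeR 3 thalamic genes and 1 gene each of the hippocampal, hypothalamic, cerebellar and meningeal lists had an unadjusted p under 0.05. The median was -1.04 for 8 cerebellar genes, and Cbln1, a synaptic organiser of granule cells, went from -1.03 to 0.10 when ZT10 mouse 2 was left out, the library in which it was at 54.1 TPM against 7.15 to 9.32 TPM in the other ZT10 mice. The median was -0.86 for the 7 hypothalamic genes tested. The summed level of the 8 listed was 92.8, 109, 37.4 and 189.7 TPM in the ZT22 mice and 264, 236, 198 and 55.95 TPM in the ZT10 mice, with overlap. For 10 striatal, 8 thalamic and 7 hippocampal genes the medians were 0.28, 0.40 and -0.05. For 11 choroid plexus and 10 meningeal genes they were 0.09 and -0.16, and for 6 blood genes 0.39. Summed blood genes were at 859.9, 1658, 545 and 682 TPM in the ZT22 mice and 399.9, 1556, 404 and 472 TPM in the ZT10 mice, highest in ZT22 mouse 2 and ZT10 mouse 2. Without ZT10 mouse 2 the medians were 0.76 for the cerebellar, -0.04 for the striatal, 0.14 for the hippocampal, 0.04 for the meningeal and 0.997 for the blood genes, and without ZT22 mouse 2 that of the thalamic genes was 0.08. The choroid plexus median ranged from -0.12 (without ZT22 mouse 1) to 0.39 (without ZT22 mouse 4). Without ZT22 mouse 3 the medians were 0.46 for the striatal, -0.28 for the hippocampal and -0.54 for the hypothalamic genes. The blood median was 0.11 without ZT22 mouse 2, the thalamic median 0.64 without ZT10 mouse 2 and the meningeal median -0.27 without ZT10 mouse 3.

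In the lists without a call, the member with the smallest p was taken as well, and the log2 fold changes of these genes, none of which passed in this test, follow. Among glial and vascular lists they were 0.24 (adjusted p = 0.463) for the astrocyte connexin Gjb6, -0.41 (adjusted p = 0.292) for the myelin gene Opalin, 0.40 (adjusted p = 0.176) for the sialidase Neu4 of oligodendrocyte precursors, -0.20 (adjusted p = 0.549) for the pericyte gene Rgs5 and -0.15 (adjusted p = 0.514) for the microglial receptor Cx3cr1. That of Cbr2, a marker of border macrophages, was -0.82 (adjusted p = 0.602) and went to 0.43 without ZT10 mouse 4. Among neuronal and matrix lists they were -0.22 (adjusted p = 0.620) for the transcription factor Neurod2, -0.62 (adjusted p = 0.535) for the interneuron gene Calb2, -0.12 (adjusted p = 0.780) for the AMPA receptor subunit Gria4, 0.21 (adjusted p = 0.630) for the growth factor Fgf1 and 0.78 (adjusted p = 0.277) for the hyaluronan synthase Has1. Among neighbouring tissues they were -1.19 (adjusted p = 0.216) for the hypothalamic peptide gene Pomc, -0.75 (adjusted p = 0.403) for the hippocampal factor Neurod1, 0.37 (adjusted p = 0.567) for the striatal adenylyl cyclase Adcy5 and 0.62 (adjusted p = 0.261) for the thalamic gene Plekhg1. They were 0.44 (adjusted p = 0.383) for the meningeal transporter Slc6a13, 0.51 (adjusted p = 0.698) for the choroid plexus gene Sostdc1, 0.95 (adjusted p = 0.679) for the globin Hbb-bt and 0.85 (adjusted p = 0.188) for the interferon-induced Rsad2. Several of these moved by over 1.5 times without 1 library. Without ZT10 mouse 2, Neurod1 was at -0.24, Gjb6 at 0.40, Adcy5 at 0.24, Gria4 at -0.02, Fgf1 at 0.34 and Hbb-bt at 1.68. Plekhg1 was at 0.31 and Hbb-bt at 0.50 without ZT22 mouse 2, Rgs5 at -0.09, Cx3cr1 at -0.10 and Gria4 at -0.24 without ZT22 mouse 3, and Neurod2 at -0.36 without ZT22 mouse 4. Without ZT22 mouse 1, Sostdc1 was at 0.32, Gria4 at -0.04 and Fgf1 at 0.12, and without ZT10 mouse 1 Gria4 was at -0.19. Fgf1 was at 0.13 without ZT10 mouse 3, and without ZT10 mouse 4 it was at 0.11 and Gjb6 at 0.16. In the edgeR fit of the 23 control libraries without a filter on counts, Calb2, Pomc, Neurod1 and Plekhg1 passed, with adjusted p of 0.00255, 0.00884, 0.00744 and 7.89e-04. That fit took in 34590 genes. In the main edgeR test the unadjusted p of Calb2 was 0.0711, so these passes depend on the setting and are not counted as calls.

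The same contrast in the PLX5622 mice used 8 further mice of the same strain, sex and age, fed chow with 1200 ppm of the inhibitor for 10 days, and shares no library with the control contrast. It called 50 of 14707 genes (0.340%), 29 higher (0.197%) and 21 lower (0.143%). Of the 50 genes called in control mice, 49 were tested there and 47 had the same sign, against 60.6% of all genes tested in both. These were 26 of 26 higher genes and 21 of 23 lower genes, and the exceptions were Ccl28 (0.45 ± 0.33 (SE), adjusted p = 0.716 in PLX5622 mice) and Igip (0.14 ± 0.12 (SE), adjusted p = 0.751). The median log2 fold change in PLX5622 mice was 0.24 over the genes higher in control mice and -0.51 over the lower genes. Called in both diets and in the same direction were 15 genes, out of 50 calls in each diet, 11 lower (Ciart, Dbp, Pla2g4e, Cirbp, Nr1d1, Rbm3, Tspan4, Bhlhe41, Hnrnpdl, Nr1d2 and Tfrc) and 4 higher (Arntl, Cldn5, P4ha1 and Ubxn2b).

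In PLX5622 mice Dbp was at 46.3, 48.02, 55.9 and 41.1 TPM at ZT22 and 115, 138, 109 and 115 TPM at ZT10, without overlap (-1.36 ± 0.13 (SE), adjusted p = 1.06e-06). Ciart was at 5.29, 6.65, 7.30 and 6.99 TPM at ZT22 and 22.6, 13.7, 17.7 and 21.8 TPM at ZT10 (-1.63 ± 0.14 (SE), adjusted p = 2.39e-07). Cldn5 was at 72.2, 75.6, 71.2 and 75.1 TPM at ZT22 and 48.4, 47.7, 35.9 and 38.4 TPM at ZT10 (0.81 ± 0.11 (SE), adjusted p = 2.37e-04). All ZT22 mice were below all ZT10 mice in Dbp and Ciart and above them in Cldn5, as in control mice. Cirbp was at 74.3, 76.9, 100.4 and 76.7 TPM at ZT22 and 141, 112, 114 and 129.8 TPM at ZT10 (-0.63 ± 0.10 (SE), adjusted p = 0.00201). Genes called in 1 diet and not in the other are not thereby shown to differ. The test of the difference between diets called 0 of 14780 genes with edgeR (smallest adjusted p 0.990), with 525 genes (3.55%) at an unadjusted p under 0.05, and 0 genes with DESeq2 (520 at an unadjusted p under 0.05). Among the 50 genes, 15 had an unadjusted p under 0.05 in that test, a count that their choice bears on, since they were picked for a large control difference, which is part of the same test.

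Further genes called in control mice were compared in PLX5622 mice. Arntl was at 12.002, 11.5, 13.2 and 14.3 TPM at ZT22 and 9.83, 7.05, 7.51 and 9.95 TPM at ZT10 (0.59 ± 0.09 (SE), adjusted p = 0.00134). Nr1d1 was at 35.9, 31.9, 33.9 and 37.1 TPM at ZT22 and 72.4, 50.1, 57.3 and 65.1 TPM at ZT10 (-0.79 ± 0.08 (SE), adjusted p = 1.67e-06). Rbm3 was at 108, 133, 143 and 131 TPM at ZT22 and 212, 183, 209 and 204 TPM at ZT10 (-0.68 ± 0.07 (SE), adjusted p = 1.36e-06). Clock and Usp2, called in control mice, had 0.21 ± 0.07 (SE), adjusted p = 0.309, and -0.43 ± 0.10 (SE), adjusted p = 0.0528. Over the 6 PLX5622 times, the 27 genes higher in control mice had their lowest mean at ZT6 in 16 and at ZT10 in 11, and the 23 lower genes had their highest mean at ZT14 in 13, at ZT10 in 9 and at ZT22 in 1.

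**Figure D4:**
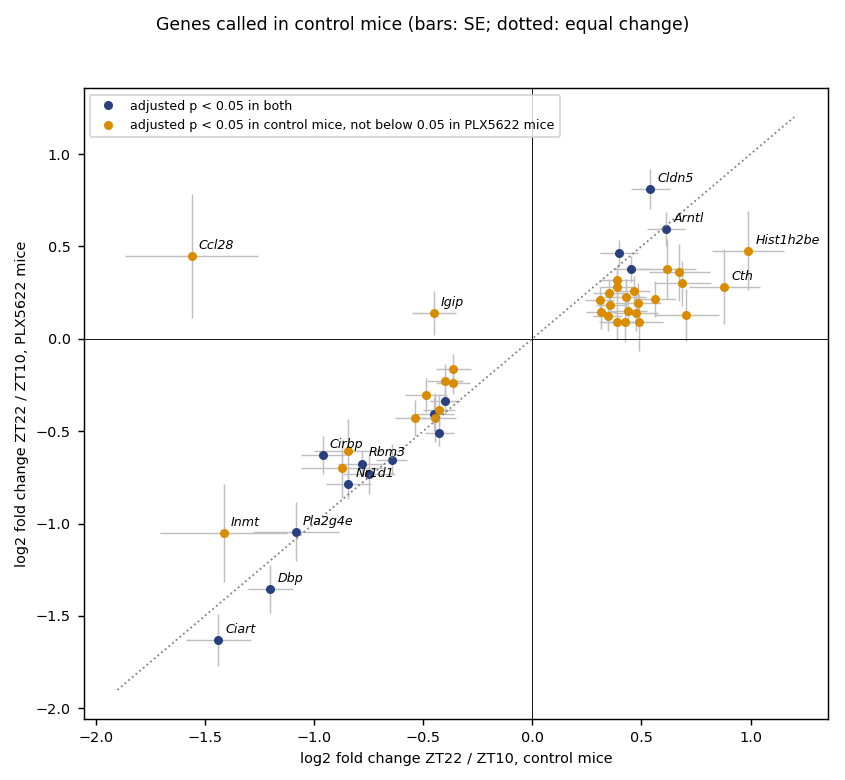
Log2 fold change at ZT22 against ZT10 in control mice (horizontal axis) and in PLX5622 mice (vertical axis) of the 49 genes called in control mice and tested in both, with bars for the SE, the dotted line at equal change, and blue points for the 15 genes called in both diets. Ccl28 and Igip are the points of opposite sign.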

How the data were processed

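Cortical RNA was sequenced in 47 mice with 1 library each, of which 8 were compared. The authors mapped reads with STAR to GRCm38 and deposited TPM values computed with Salmon and the Gencode annotation. The authors also deposited whole-number counts per gene in a table named for FPKM. Submitters' notes name STAR, featureCounts, edgeR, limma and mm10 without tying them to it. Counts were tested with edgeR 4.0.16 in R 4.3.3 (TMM factors, quasi-likelihood test, 23 control libraries, 6 times as a factor, mean of at least 1 CPM, Benjamini-Hochberg adjusted p under 0.05), so fold changes come from counts and levels from TPM. DESeq2 1.42.0 and limma 3.58.1 were alternatives. The test was tried on 1 set of simulated counts with 200 seeded genes, in equal numbers at each size. There edgeR recovered 82 genes seeded at a log2 fold change of 1 and 50 seeded at 0.5, with 3.65% false calls. False calls were 10.1% with DESeq2 and 6.62% with limma. The genes named were the clock lists, the 12 largest changes in each direction among called genes of at least 1 TPM, the 8 smallest p, up to 4 called members or the smallest p of each other list, and Ctss, P2ry12, Aif1 and Acan. Members and lists were chosen with earlier results of these data known. 1 further clock gene is not reported here.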

Additional observations from a re-analysis of the deposited data

Results flagged for a closer look

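In 17 of 200 groups of 4 mice examined over the named genes and the list sums, 1 mouse lay far from the other 3, with a gap to its nearest neighbour that took nearly the whole range of the group. For independent values with a normal spread, chance gives about 1 in 20 of such groups. Several genes here are also part of a list sum, so the groups are not independent. The count was not tested against that rate. ZT22 mouse 1 was set apart in Acat2 (23.7 TPM, others 28.5 to 28.96 TPM), in Chordc1 (21.7 TPM, others 36.8 to 39.8 TPM), in Spry4 (2.95 TPM, others 3.54 to 3.62 TPM), and in the summed level of the clock repressors list (172 TPM, others 211 to 216 TPM). ZT22 mouse 3 was set apart in Dnajc28 (8.30 TPM, others 4.91 to 5.14 TPM). ZT22 mouse 4 was set apart in the summed level of the interferon response list (111 TPM, others 135 to 137 TPM). ZT10 mouse 1 was set apart in the summed level of the cortical excitatory neurons list (2301 TPM, others 1927 to 1939.8 TPM). ZT10 mouse 2 was set apart in Cbln1 (54.1 TPM, others 7.15 to 9.32 TPM), in Gjb6 (78.5 TPM, others 53.4 to 55.8 TPM), in Hbb-bt (65.05 TPM, others 17.7 to 21.8 TPM), in the summed level of the cerebellum list (252 TPM, others 23.9 to 30.1 TPM), and in the summed level of the blood list (1556 TPM, others 399.9 to 472 TPM). ZT10 mouse 3 was set apart in Hlf (49.9 TPM, others 61.8 to 63.7 TPM), and in Crybb1 (9.61 TPM, others 11.2 to 11.3 TPM). ZT10 mouse 4 was set apart in Inmt (6.48 TPM, others 3.04 to 3.53 TPM), in Cbr2 (10.5 TPM, others 1.05 to 1.76 TPM), and in the summed level of the immediate early list (678 TPM, others 266 to 310.2 TPM). No gene was set apart by a difference between control and PLX5622 mice in the test of that difference.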

How the results depend on the processing

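Against 50 calls (27 higher, 23 lower), scaling by median-of-ratios or upper-quartile factors gave 49 and 51, and a minimum of 5 CPM 55. DESeq2 called 140 (86 higher, 54 lower), with 48 of 48 testable calls kept. limma called 15 on log2(TPM + 1) (9 higher, 6 lower; 12 kept) and 12 on log2(TPM + 0.1) (6 higher, 6 lower; 9 kept), no filter 181 (103 higher, 78 lower; 40 kept), the 8 libraries alone 7 (1 higher, 6 lower; fewer samples), all 47 libraries 101 (64 higher, 37 lower; 47 kept), and the mitochondrial share as covariate 71 (41 higher, 30 lower; 50 kept). Without 1 library at a time, 16 to 83 genes were called, 5 to 50 higher and 11 to 33 lower, and the difference in the mitochondrial share of the counts, ZT22 versus ZT10, ranged from -0.808 to -0.0106 percentage points. The replicate block called 80 (51 higher, 29 lower; 49 kept), but pairing by number was not established, as same-number correlations were 0.269, 0.0797, 0.0379 and 0.159 and 2 of 4 libraries at each time correlated best with their own number. The test between diets called 0 in every alternative run (465 to 808 at an unadjusted p under 0.05 with DESeq2, 16 libraries or the block). Among named genes' fold changes 1116 kept direction and side of the threshold, 128 no longer passed, 15 newly passed and 9 reversed, all of uncalled genes. P2ry12 went to 0.0532 and 0.0545 in the limma fits with 1 and 0.1 added, Acan to 0.07 and 0.06 without ZT22 mouse 1 and 2 and to 0.0801 and 0.02 without ZT10 mouse 2 and 4 (range from -0.155), Aif1 to 5.98e-05 without ZT10 mouse 1 (range from -0.171), Cbln1 to 0.10 without ZT10 mouse 2 (range from -1.29) and Cbr2 to 0.43 without ZT10 mouse 4 (range from -1.11). The causes were not tested.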
